A study of Mus musculus with 6 samples.

Results

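Short interspersed elements (SINEs) made up 1942 of the 64217 accessible regions, or 3.02%, in the comparison of mouse lung fibroblasts grown on 32 kPa polydimethylsiloxane (PDMS) and on tissue culture plastic. They made up 14 of the 2121 regions listed as more accessible on 32 kPa than on 0.2 kPa PDMS, and 33 of the 2114 listed as more accessible on plastic than on 0.2 kPa. A region was counted as a SINE region where the repeat class in its deposited annotation was SINE, and its family and element name were taken from the same entry. Primary lung fibroblasts carrying green fluorescent protein (GFP) were taken by sorting from mice of the Col1a1-GFP transgenic genotype and cultured on collagen I in medium with serum before Omni-ATAC-seq, which reads the DNA that a transposase can reach. The 3 groups were cells on 0.2 kPa PDMS (soft), on 32 kPa PDMS (stiff) and on plastic, with 2 libraries each, and they shared the genotype, coating, medium and 8 days in culture. The labels used here do not state the strain and age of the mice, nor whether libraries 1 and 2 of a culture came from different mice. Cells were selected by a Col1a1 reporter, so the cultures model cells active for collagen I and not every lung fibroblast.

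SINEs are short retrotransposons that make no protein and are copied by the machinery of LINE elements. They are transcribed by RNA polymerase III from a promoter inside the element, and most copies are held in closed chromatin by DNA and histone methylation. In the mouse, the Alu class consists of B1 elements, which descend from the RNA of the signal recognition particle, and the B2 class descends from a transfer RNA. B4 elements join parts of ID and B1 elements, ID elements descend from a transfer RNA by way of a neuronal RNA, and MIR elements are much older copies shared among mammals. Some B2 copies carry a binding site for the insulator protein CTCF, and SINE copies can take part in the control of nearby genes.

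Sequence could be shown for 3 SINE regions, those whose centre lay in a 300-base RefSeq promoter window (build GRCm38.p6), out of 8 that touched any of 32851 windows. Each is printed 5′ to 3′ on the strand of the promoter's gene, to show a pair of B2-family regions of the B3 element beside a MIR-family region of the MIRb element. The first lay at chr10:67311433-67311540 on the plus strand, between genes and 26.2 kb from the start of Nrbf2. The second lay at chr1:188018434-188018561 on the minus strand, in an intron and 9.51 kb from the start of 9330162B11Rik. The third, 147 of the 174 bases of its region, lay at chr2:38533388-38533534 on the minus strand, in an intron and 21.6 kb from the start of Nek6. These distances are those of the deposited annotation, whose nearest genes are not the genes of the promoter windows. The levels of these regions, as log2 of normalised reads on 32 kPa and then on plastic, were 3.63 and 3.34, 2.53 and 3.73, and 4.56 and 4.62. None was called between those cultures. Capitals mark the longest run of bases that the B3 regions share on these strands.
B3 at the Gm46229 promoter: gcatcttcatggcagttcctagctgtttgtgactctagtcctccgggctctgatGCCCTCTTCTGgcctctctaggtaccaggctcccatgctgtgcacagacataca
B3 at the Gm51738 promoter: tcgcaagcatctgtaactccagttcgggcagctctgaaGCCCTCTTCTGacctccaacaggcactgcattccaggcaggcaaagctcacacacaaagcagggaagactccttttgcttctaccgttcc
MIRb at the Gm35808 promoter: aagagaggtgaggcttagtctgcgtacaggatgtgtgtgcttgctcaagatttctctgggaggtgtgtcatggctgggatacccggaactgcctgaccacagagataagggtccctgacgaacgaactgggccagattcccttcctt
The shared run was 11 bases long, began at base 55 of the first sequence and base 39 of the second, and was in the same orientation in both. On either strand it occurred in 0.164% of promoter windows cut to 108 bases and in 0.186% of those cut to 128 bases. The MIRb sequence did not hold it, and the longest run that MIRb shared with a B3 sequence on either strand was 9 bases. Searches on both strands covered GTTCNANNC (the B box of RNA polymerase III promoters), AGNNGGCGC (a CTCF core), TGANTCA (AP-1), GGAATG (TEAD) and TGTGGTT (RUNX). The single match in the 3 sequences was the TEAD word, at base 67 of the Gm51738 sequence on the opposite strand, and 6.72% of promoter windows of that length held it. A match is a description of letters and not a measured binding site.

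All values below are the authors' mean level for a culture, given as log2 of normalised reads in a region. No value per library was in the tables used here, so no spread between libraries can be given, depth is unknown, and the authors' false discovery rate (FDR) is the only measure of replicate error. In bulk cells, fewer cells with an open region and less opening in each cell cannot be told apart. How reads that map to many copies of a repeat were placed is not stated in the labels, and its part in the values was not tested. The labelled cell type was checked on marker promoters, where 7 of 8 fibroblast markers had an accessible region within 1000 bases of a start site, at 3.76 to 8.82 on 32 kPa. None of 5 epithelial, 4 leukocyte and 3 mesothelial markers had one, while 2 of 4 endothelial markers and 1 of 3 pericyte and smooth muscle markers did. The endothelial Kdr and Tek had 3.08 and 3.13 on 32 kPa, and 3.02 and 3.71 on plastic. Myh11, of smooth muscle, had 5.25 on 32 kPa and 5.45 on plastic. On plastic the fibroblast markers ran from 2.97, at Thy1, to 8.93, so the levels of these sets overlapped.

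In the comparison of 32 kPa and plastic, which has the widest set of regions, B2 was the most numerous SINE family. It held 769 regions, or 39.6% of all SINE regions, followed by B4 with 436, MIR with 363 and Alu with 273. The ID family had 58 regions, Deu 24 and tRNA-derived elements 19. SINE regions were about evenly placed, with 1014 in introns and 928 between genes. The annotation gives a repeat name only to intronic and intergenic regions, so the 15 SINE regions within 1000 bases of a start site (0.772%) are set against 3.8% of intronic and intergenic regions with no repeat name, not against promoters. Distances to the nearest start site are those of the deposited annotation, which does not count every RefSeq start. Their median was 19.5 kb for B2, 21.3 kb for Alu, 31.3 kb for B4 and 37.0 kb for MIR. For all intronic and intergenic regions it was 32.8 kb. B2 and Alu regions thus lay nearer to genes than MIR regions by the median. SINE regions were also short, with a median of 140 bases against 164 for all intronic and intergenic regions and 177 for all regions. By family the median was 123 bases for B2, 137 for Alu, 146 for B4 and 167 for MIR, so MIR regions were not short. Leaving out chromosome Y with 14 regions, the share of regions that were SINEs ran from 2.54% on chromosome 17 to 3.86% on chromosome X.

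Per base, accessible SINE regions had levels close to those of other regions outside promoters. The median level per kilobase on 32 kPa was 6.55 for SINE regions, 6.50 for LINE regions and 6.55 for LTR regions, against 6.67 for intronic and intergenic regions with no repeat name and 7.23 for promoters. Among the 4 largest SINE families the medians per kilobase on 32 kPa ran from 6.49 for B2 through 6.57 for Alu to 6.59 for both B4 and MIR. Of these 4 families B2 came first on plastic, at 6.74, before Alu at 6.72, B4 at 6.70 and MIR at 6.69. The small families lay at 6.61 and 6.91 for Deu, 6.56 and 6.78 for tRNA-derived elements, and 6.54 and 6.67 for ID on 32 kPa and plastic. These medians differ by far less than the quartiles of a single family, which for B2 on 32 kPa were 6.14 and 6.80. Without the correction for length the families stood further apart. Median levels on 32 kPa were then 3.44 for B2, 3.71 for B4, 3.75 for Alu and 3.99 for MIR, the order of their lengths except for B4 and Alu.

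**Figure D1:**
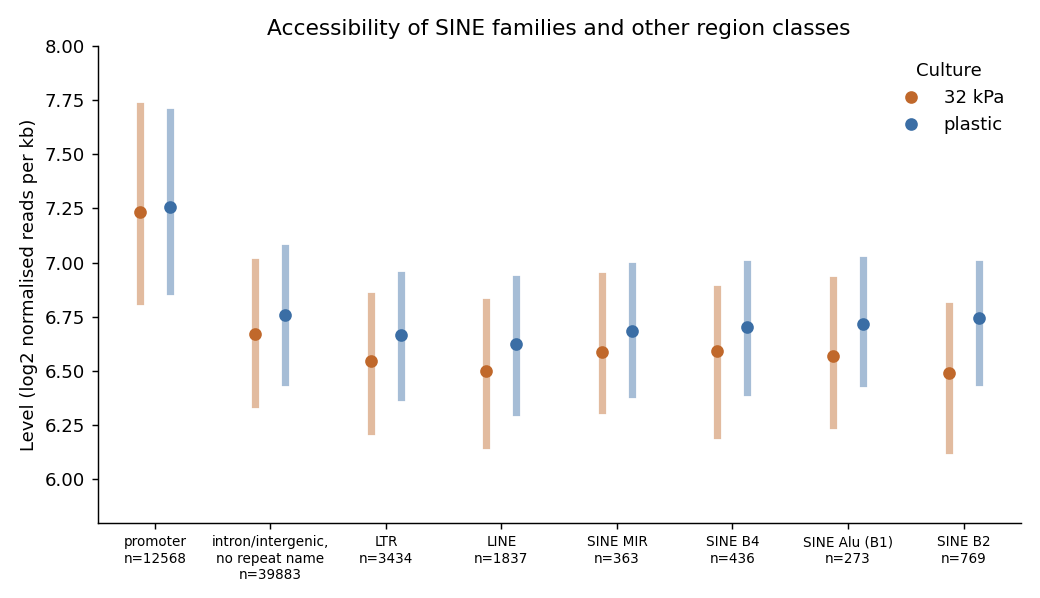
Accessibility per kilobase (log2 normalised reads per kb) by region class on 32 kPa (orange) and plastic (blue); points are medians over regions, bars run from the first to the third quartile, and n is the number of regions. The 4 SINE families plotted overlap each other and the unnamed intronic and intergenic regions, and of these 4 B2 is lowest on 32 kPa at 6.49 and highest on plastic at 6.74.

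The deposited names covered 36 SINE elements, of which 17 had 20 or more regions and together held 1741 of the 1942 regions. B3 was the most frequent with 348 regions, then B3A with 251, both old members of the B2 family. B2_Mm2, a younger member, had 145 regions, as did B4A. On 32 kPa the median level per kilobase was 6.49 for B3, 6.53 for B3A and 6.44 for B2_Mm2. In the MIR family MIR3 had 6.66, MIR 6.60, MIRc 6.58 and MIRb 6.57. The highest of the 17 medians per kilobase was 6.78, for PB1D7, an early Alu-class element with 27 regions, and the lowest was 6.37, for ID4, also with 27. These elements have few regions, and their quartiles overlap those of the others.

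**Figure D2:**
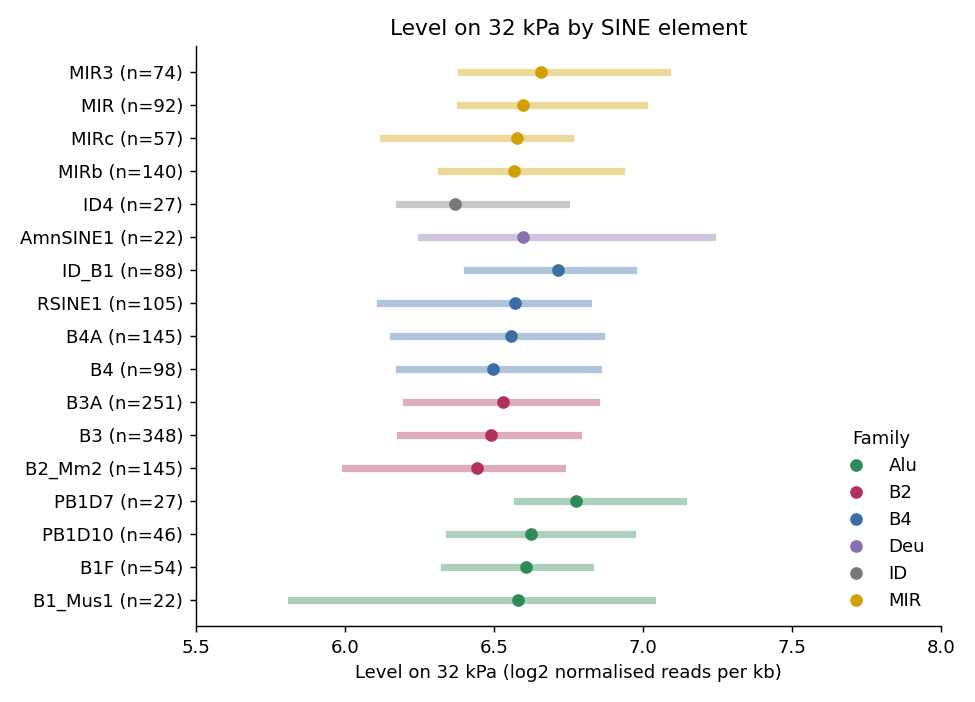
Level on 32 kPa (log2 normalised reads per kb) for the 17 SINE elements with 20 or more regions, coloured by family; points are medians and bars run from the first to the third quartile. Medians lie between 6.37 (ID4) and 6.78 (PB1D7), and the bars overlap throughout.

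By mean level over 32 kPa and plastic, without correction for length, the highest SINE regions of each main family lay far above their family median. The 8 regions named here were 290 to 781 bases long, against a SINE median of 140, and the order per kilobase can differ. Both of the highest Alu regions were B1_Mus1 elements, a young B1 type. One lay at chr10:22142278-22143058 in an intron, 6.60 kb from the start of E030030I06Rik, with a level of 8.46 on 32 kPa and 8.41 on plastic. The other lay at chr15:75085498-75085860, between genes near Ly6c2, a surface protein of leukocytes, with 8.12 and 8.15. In the B2 family the highest was a B2_Mm2 element at chr19:45649941-45650242 in an intron near Fbxw4, a subunit of ubiquitin ligases, with 7.13 and 7.2. The next, a B3A element 10.8 kb from Plbd1, had 6.34 and 6.51. A B4 element 39.6 kb from Cmah, which encodes an enzyme of sialic acid synthesis, had 6.33 and 6.40, and an ID_B1 element 132.0 kb from Noct had 6.37 and 6.35. In the MIR family, MIRb elements near Btbd3 and Sirpa stood highest. The first had 7.38 and 7.42, and the second 7.19 and 6.92. In these 8 regions the cultures differed by at most 0.27, and none had an unadjusted p under 0.05 in the authors' deposited table.

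Between 32 kPa and plastic no SINE region was called. The authors' deposited table gives an FDR of 1 for every one of the 64217 regions, so 0% were called by DiffBind at an FDR of 0.05. SINE regions as a class lay slightly higher on plastic. The median log2 fold of plastic over 32 kPa was 0.16 for SINE regions, with 64.8% of them above 0, against 0.05 and 55.0% for all regions. Among the families it was 0.24 for B2, 0.14 for Alu, 0.13 for B4 and 0.08 for MIR, and 71.4% of B2 regions lay higher on plastic. LINE and LTR regions each had a median of 0.11. Regions are not replicates of a culture, and these medians have no test.

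The 3 most frequent B2 elements had similar folds. Their median folds of plastic over 32 kPa were 0.27 for B3, 0.21 for B3A and 0.25 for B2_Mm2, and 72.4%, 70.1% and 73.1% of their regions lay higher on plastic. In the B4 family they ran from 0.085 for ID_B1 to 0.19 for B4A, and in the MIR family from 0.025 for MIR3 to 0.13 for MIRc. Among Alu elements B1F had 0.145 and PB1D10 0.14, whereas PB1D7 had 0.01. B1_Mus1, with 22 regions, had -0.035, and 45.5% of its regions lay higher on plastic. The smaller families had medians of 0.115 for ID, 0.07 for Deu and 0.13 for tRNA-derived elements. Elements with fewer than 20 regions varied more, and in the B2 family B2_Mm1t had 0.505 over 16 regions and B2_Mm1a -0.15 over 9.

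The same lean was seen in the tails. At an unadjusted p under 0.05, all regions gave 245 higher on plastic (0.382%) and 125 higher on 32 kPa (0.195%). SINE regions gave 11 (0.566%) and 1 (0.0515%), and in favour of plastic LINE regions had 0.762% and LTR regions 0.612%. By size alone, a log2 fold of at least 1 was reached by 3.25% of all regions in favour of plastic and by 1.42% in favour of 32 kPa. The SINE counts were 132 (6.80%) and 22 (1.13%). In favour of plastic, LINE regions had 6.04%, LTR regions 5.01% and intronic and intergenic regions with no repeat name 3.59%, while promoters had 0.708%. Of the SINE regions, B2 held 71 (9.23% of its regions) and 4, B4 32 and 7, MIR 14 and 7, and Alu 12 and 2. Folds were most spread where levels were lowest, so they were also read within bands of the mean level over both cultures.

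Within bands of the mean level, the B2 and B4 medians lay above those of intronic and intergenic regions with no repeat name in each of the 6 bands. Below a level of 3, the median fold was 0.70 for 132 B2 regions and 0.41 for intronic and intergenic regions with no repeat name. At 3.5 to 4 it was 0.22 for 174 B2 regions and 0.10 for the unnamed regions. At 5 or more it was 0.17 for 46 B2 regions and -0.01 for the unnamed ones. For B4 the median was 0.73 in the lowest band and 0.07 in the highest. Alu gave 0.27 and 0.01, and MIR 0.51 and 0.08. The Alu median lay below that of the unnamed regions in 1 band and the MIR median in 3. LINE and LTR medians lay above the unnamed regions in 5 of 6 bands each, by about as much as B4 in some. At 4 to 4.5, for example, they were 0.10 for LINE, 0.12 for LTR, 0.09 for B4 and 0.19 for B2, against 0.07 for the unnamed regions. None of these differences has a test.

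**Figure D3:**
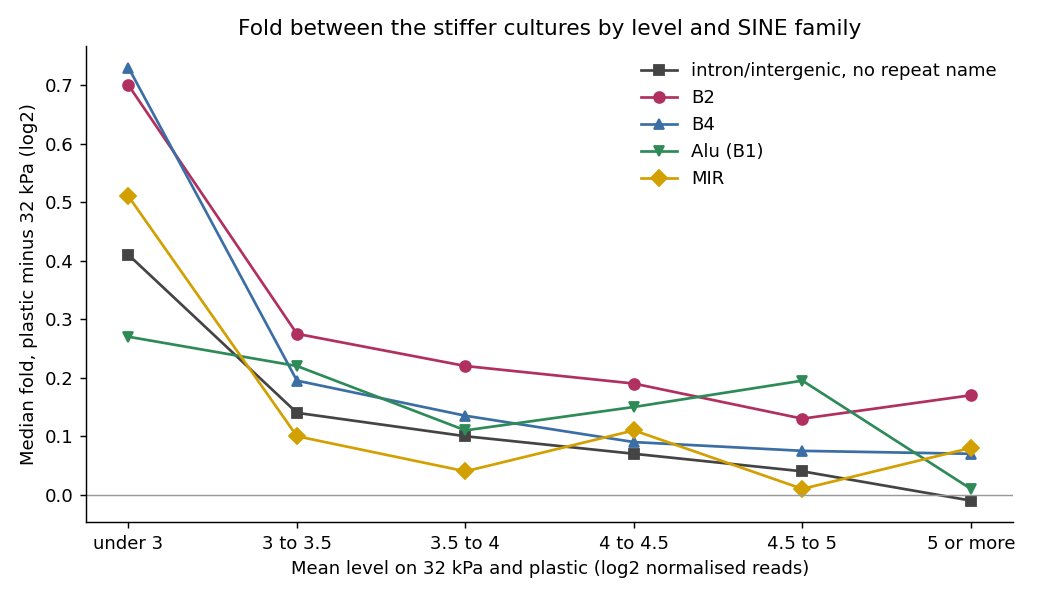
Median log2 fold of plastic over 32 kPa (vertical axis) in bands of the mean level of both cultures (horizontal axis, log2 normalised reads) for SINE families and for intronic and intergenic regions with no repeat name. Each set has its highest median in the lowest band, and B2 lies above the unnamed regions in each band, from 0.70 against 0.41 below a level of 3 to 0.17 against -0.01 at 5 or more.

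The SINE regions named here for the smallest p in the authors' deposited table had low levels in at least 1 culture. A B3 element in an intron near Sbno1, at chr5:124397586-124397772, had a level of 0.92 on 32 kPa and 3.62 on plastic, with a log2 fold of 2.69, p = 0.014 and an FDR of 1 in the authors' deposited table. A B4A element near 1700049E15Rik had 2.31 and 4.22, and a B1_Mur1 element near Map4, a microtubule protein, 2.58 and 4.27. In these 3 regions plastic was the higher culture, and each had a level on 32 kPa below 3. A MIRb element near Eif4e3 lay the other way, with 3.80 on 32 kPa and 1.75 on plastic.

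Few SINE regions were among those listed as more accessible on a stiffer culture than on 0.2 kPa. Table regions overlapping a region listed as higher on 32 kPa than on 0.2 kPa made up 3.31% of all, and 14 of 1942 SINE regions (0.721%) did so. For plastic over 0.2 kPa the share was 3.30% of all regions and 31 SINE regions (1.60%). Intronic and intergenic regions with no repeat name had 2.42% and 2.5%. Most SINE regions lay below every listed region in level. On 32 kPa 192 reached 4.97, the lowest level of any listed region, and 231 reached the corresponding level on plastic, 4.94. Among regions at or above those levels, 7.29% of SINE regions overlapped the 32 kPa list against 12.5% of all regions, and 13.4% overlapped the plastic list against 11.7%. For the unnamed intronic and intergenic regions the shares were 12.6% and 12.2%. By family the shares above those levels for 32 kPa and plastic were 7.5% and 15.3% for B2, 5.26% and 16.3% for B4, 3.03% and 8.57% for Alu, and 8.20% and 8.96% for MIR. LTR regions had 11.9% and 19.1%, and LINE regions 10.0% and 15.3%. On 32 kPa these 4 families had 33 to 61 regions above the level and 1 to 5 overlapping regions each, so the shares rest on few regions. The level limit used the culture in which listed regions are high, so these shares are not independent of the listing.

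Of the 14 SINE regions listed on 32 kPa, 5 were MIR, 3 B2, 2 B4, 2 ID, 1 Alu and 1 Deu. They made up 1.3% of the intronic and intergenic regions of that list, and the 33 of the plastic list 2.7%, beside 4.0% in the wider table. The 5 MIR regions had levels of 4.32 to 5.25 on 0.2 kPa and 5.42 to 6.31 on 32 kPa, and the 3 B2 regions 3.94 to 4.47 and 5.17 to 5.83. Listing required a log2 fold of at least 1 and an FDR of at most 0.05, so each was higher on 32 kPa by construction of the list. Their median fold of 1.13, or 2.19-fold on the linear scale, lay beside 1.12 for all listed regions, and 2 of 14 had an FDR of at most 0.01 (14.3%) against 33.0% of the list. SINE regions lay further from genes than the list as a whole, with 71.4% more than 10 kb from a start site against 39.0%, and the list, unlike the SINE regions, includes promoters.

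Among the 14 SINE regions of the 32 kPa list, the largest fold was at an ID_B1 element of the B4 family, at chr16:78538117-78538328 between genes, 22.1 kb from 4930478L05Rik. Its level was 3.70 on 0.2 kPa and 5.21 on 32 kPa, a log2 fold of 1.52 with an FDR of 0.0161 in the authors' deposited table. Plastic had 4.69 at the matching region, between the other cultures. The smallest FDR of the 14, 0.0049 in the authors' deposited table, was in an intron at an ID element, chr3:30999702-31000183, 4.17 kb from Prkci, which encodes an atypical protein kinase C. Its level was 5.74 on 0.2 kPa, 6.80 on 32 kPa and 6.68 on plastic. Among MIR elements, a MIR copy 1.62 kb from Dync1li1, a dynein subunit, had 4.88 on 0.2 kPa and 6.06 on 32 kPa, and a MIRb copy near Olfr455, an odorant receptor, had 4.80 and 5.91. A MIR3 copy 46.4 kb from Hes1, the transcriptional repressor downstream of Notch, had 4.34 and 5.42, and plastic had 4.91 there. At a MIRc copy in an intron near Mpo, the peroxidase of neutrophils, the levels were 4.32 on 0.2 kPa, 5.46 on 32 kPa and 4.66 on plastic, so that plastic lay nearer to the soft culture. The single Alu region, a B1_Mm element near Rdm1, was alike, with 4.57, 5.70 and 5.07.

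The plastic list held 33 SINE regions, of which 9 were B2, 8 B4, 8 MIR, 4 Alu, 2 tRNA-derived, 1 Deu and 1 ID. All 9 of its B2 regions, and all 3 of the 32 kPa list, were B3 or B3A elements. In the wider table B3 held 348 and B3A 251 of the 769 B2 regions, and B2_Mm2 held 145. With so few listed regions, the absence of B2_Mm2 from the lists is not a result about that element. The 9 B2 regions had levels of 3.83 to 4.88 on 0.2 kPa and 5.08 to 5.98 on plastic, and the authors' deposited table gives them log2 folds between 1.03 and 1.52. The 8 B4 regions ran from 3.71 to 5.26 on 0.2 kPa and from 5.01 to 6.40 on plastic, and 6 of them lay in introns. The 8 MIR regions ran from 4.01 to 5.14 and from 5.23 to 6.25, and 5 of them lay between genes. For B2 and MIR the soft and plastic ranges did not overlap, and for B4 and Alu (3.71 to 5.24 and 5.09 to 6.28) they did. Over the whole list the ranges also overlapped, at 3.25 to 7.62 and 4.94 to 8.63. Listing required a log2 fold of at least 1, so a gap between ranges of few regions follows in part from the list. It is a statement about listed regions and not about the cultures or families as a whole. The median fold was 1.11, or 2.16-fold, beside 1.12 for the whole list, and 7 of 33 had an FDR of at most 0.01 (21.2%) against 32.7%. More than 10 kb from a start site lay 69.7% of them, against 47.2% of the list.

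The largest fold among the 33 SINE regions of the plastic list was at a B3A element at chr4:116815325-116815566, in an intron and 1.13 kb from the start of Mutyh, a glycosylase that repairs oxidised bases. Its level was 3.90 on 0.2 kPa and 5.42 on plastic, a log2 fold of 1.52 with an FDR of 0.0103 in the authors' deposited table, and 32 kPa had 5.11. A MIR element 201.0 kb from Clvs1 had 4.28 on 0.2 kPa and 5.70 on plastic, with a fold of 1.42 in the authors' deposited table. A B4 element 73.8 kb from Mvb12b, a subunit of the ESCRT sorting machinery, and a B1F element 443.0 kb from Mei4 each went from 3.71 to 5.09. Their levels on 32 kPa, 4.53 and 4.27, lay between the soft and plastic values. A B4A element in an intron near Mir1927 had 4.43 and 5.79, and a B3A element 470.0 kb from Mir5130 had 4.05 and 5.34. In the tRNA-derived group, an LFSINE_Vert element 2.01 kb from the start of Angpt1, a ligand of the endothelial receptor Tek, had 4.03 on 0.2 kPa, 5.31 on plastic and 5.14 on 32 kPa. An RSINE1 element near Gbe1, the glycogen branching enzyme, had 3.73 and 5.01. By FDR, a MIR3 element in an intron, 169.0 kb from 4930581F22Rik, was among the first, with 4.90 on 0.2 kPa, 6.14 on plastic and an FDR of 0.00427 in the authors' deposited table. A B3 element at chr19:5787186-5787532, whose nearest named gene is Mascrna at the Malat1 locus, had 4.88 on 0.2 kPa, 5.92 on plastic and 5.74 on 32 kPa.

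The comparisons of 32 kPa and of plastic with 0.2 kPa used the same soft libraries. A region present in both lists is thus not found independently by each, and the values are given side by side. Of the SINE regions, 5 of 14 in the 32 kPa list (35.7%) and 5 of 33 in the plastic list (15.2%) overlapped the other list. Of all listed regions, 680 of 2121 (32.1%) and 681 of 2114 (32.2%) did. The SINE shares rest on 5 regions each. A B3A element at chr13:53514634-53514883, 42.0 kb upstream of Msx2, a homeobox transcription factor, had 4.47 on 0.2 kPa and 5.83 on 32 kPa, a fold of 1.36 with an FDR of 0.0102 in the authors' deposited table. In the plastic list it had 4.49 and 5.98, a fold of 1.49 with an FDR of 0.00177 in the authors' deposited table, the smallest FDR of any SINE region there. The B4 element near Cmah, at chr13:24375296-24375708, went from 5.26 to 6.40 in each list, with FDRs of 0.0097 and 0.00352 in the authors' deposited tables. A B3A element 3.41 kb from Gzmb, which encodes a protease of cytotoxic lymphocytes, had 3.94 and 5.17 in the 32 kPa list and 3.83 and 5.08 in the plastic list. An AmnSINE1 element 239.0 kb from Ube2v2, a ubiquitin-conjugating enzyme variant, had 4.99 and 6.05, and then 5.02 and 6.05. Each list had one further SINE region that overlapped a region of the other list without a repeat name. These were an ID element near Rgs6, with 4.87 on 0.2 kPa and 6.01 on 32 kPa, and a PB1D7 element near Sirt4, with 4.96 on 0.2 kPa and 6.01 on plastic.

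Levels of the culture that a list did not use were read at the overlapping regions of the table of 32 kPa and plastic. On plastic the 14 regions of the 32 kPa list lay 0.34 to 1.5 above 0.2 kPa, with a median of 0.955 against 0.950 for all listed regions. On 32 kPa, 30 of the 33 regions of the plastic list matched a SINE region, and these lay 0.39 to 1.34 above, with a median of 0.815 beside 0.95 for all listed regions. The other 3, near Sirt4, Bdnf and Ntrk3, matched intervals without a repeat name and were left out of that range and median. Regions in both lists had to reach a log2 fold of 1 on each stiffer culture. They made up 15.2% of the SINE regions of the plastic list and 32.2% of that whole list. Among matched regions in only 1 list, the medians for the plastic list were 0.805 for SINE, with Bdnf and Ntrk3 included, and 0.84 for all. For the 32 kPa list they were 0.89 and 0.86. Matched intervals shared at least 50% of both lengths and can differ in their ends, so a matched level need not be that of the listed interval. The soft level in these differences is the one on which the lists were drawn, so the direction is not independent of the listing.

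**Figure D4:**
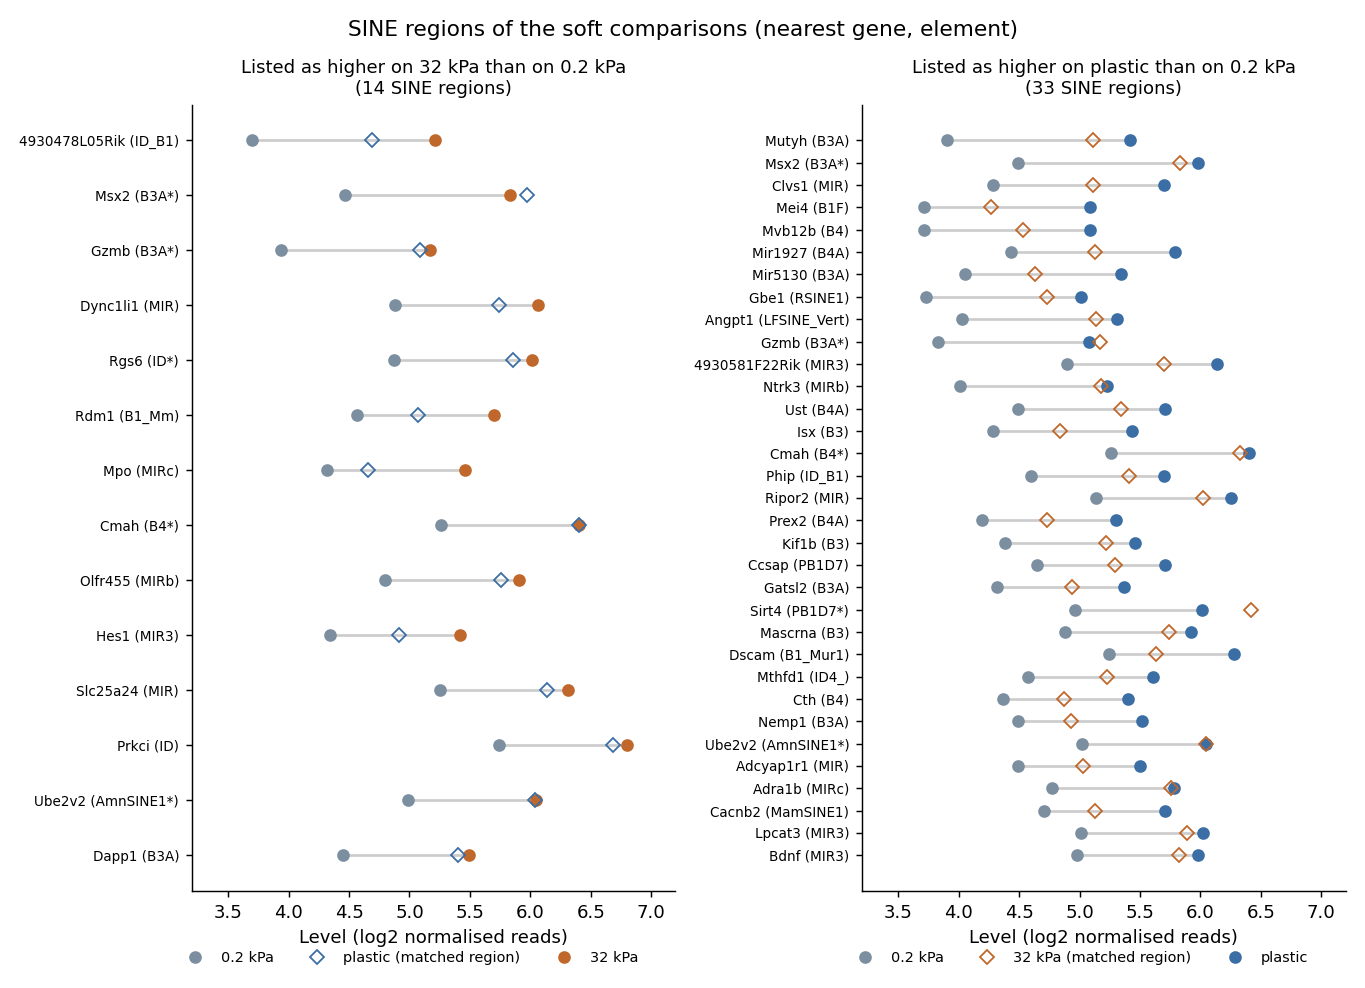
Authors' mean level (log2 normalised reads) at each of the 14 SINE regions listed as higher on 32 kPa (left) and the 33 listed as higher on plastic (right), ordered by fold and named by nearest gene and element; grey points are 0.2 kPa, filled coloured points the listed culture, open diamonds the other culture at the overlapping region of the third table, and an asterisk marks overlap with the other list. Diamonds lie 0.34 to 1.5 to the right of the grey points in the left panel and 0.39 to 1.34 in the right, leaving out Sirt4, Bdnf and Ntrk3, whose diamonds come from intervals without a repeat name.

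None of the listed SINE regions had a nearest gene in 7 lists of actin, matrix, YAP/TAZ, TGF-beta, adhesion, transcription factor and SINE control genes. The genes of a list were nearest to few regions of any kind, from 31 for SINE control to 189 for matrix genes, of 64217. With 14 and 33 listed SINE regions, finding none is not read as a result about these genes. In the wider table, 17 SINE regions lay nearest to 15 of the 140 gene symbols on these lists. Ccn1 and Cyr61 are symbols of the same gene, as are Ccn2 and Ctgf. The TGF-beta list held 5 of them, at Tgfbr1 (a pair of MIR3 copies), Tgfbr2 (B3A), Smad3 (ID_B1) and Smad4 (B1_Mur3), and the adhesion list 5, at Itgb1 (B1F1 and RSINE1), Itgb3 (B3), Ptk2 (B2_Mm2) and Piezo2 (B3A). The contractile list held a PB1D7 copy at Actb, and the matrix list a MIRc copy at Col5a2. The share of SINE regions among the regions nearest to a list's genes was 4.5% for TGF-beta and 3.82% for adhesion, above the 3.02% of all regions. It was 2.22% for YAP/TAZ, 1.57% for transcription factors, 0.658% for actin and 0.529% for matrix genes, all below it. These shares rest on 1 to 5 SINE regions each.

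Of 15 genes for RNA polymerase III transcription and for silencing or insulation at SINEs, each had an accessible region, and none of their 31 regions was a SINE. The promoter of Dnmt1, the maintenance DNA methyltransferase, was listed on 32 kPa, with 4.76 on 0.2 kPa and 5.75 on 32 kPa and an FDR of 0.0443 in the authors' deposited table. In all, 2 of these 15 genes had a region listed on 32 kPa and 1 on plastic. Of all table regions 3.31% and 3.30% overlapped the lists, and of promoters 7.69% and 6.56%. Those are shares of regions and not of genes, and counts this small are not read as a result about these genes. Between 32 kPa and plastic their promoter folds ran from -0.58 at Dnmt1 to 0.41 at Chd4, a chromatin remodeller, and none was called.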

How the data were processed

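Omni-ATAC-seq was measured in 6 libraries, grouped by the culture in their labels. BWA, Picard, MACS2, DiffBind and the build mm10 are named, without versions, in the submitters' processing notes, and nothing there describes the handling of repeats. Per the file headers, the 3 deposited tables hold a log2 mean of normalised reads per culture and a log2 fold that is their difference, with a p-value and an FDR computed by the authors over their regions. Annotations are in the layout of HOMER, and other text columns were used as deposited. Depth is unknown. One repeated header line, counted as 1 row, was dropped.

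The tables of 0.2 kPa name their sides Control and Treat. Control was read as the stiffer culture, because at 643 of 643 intervals shared with the table of named cultures it equalled the 32 kPa level, and at 653 intervals it lay 0.01 to 0.02 above the plastic level.

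SINE regions were those whose annotation had SINE as its repeat class. Called means an FDR of at most 0.05. Regions were matched by an overlap of at least 1 bp. Levels of the culture that a list did not use were read where at least 50% of both lengths overlapped. Named regions were, in each soft comparison, the 10 with the largest fold, the 3 with the smallest FDR and those in both lists. In the comparison of 32 kPa and plastic they were the 5 with the smallest FDR, ties taken by p, and the 2 of each main family with the highest mean level. One region that this rule names is not reported here. The regions at the Malat1 locus and near Bdnf and Ntrk3 and the 3 printed sequences were added outside this rule, with values known. The members and gene lists were chosen with earlier results of these data known. Alternatives covered FDR, level, length, overlap and centring. Level bands and the split into introns and intergenic regions were added after seeing the data. Scripts were tested on simulated data and run in Python 3.11.15 with pandas 2.3.3, numpy 2.4.6 and matplotlib 3.10.9. The planned motif search needed a genome and was run only on the promoter sequences of RefSeq (GRCm38.p6), leaving out SINE regions on chromosome 18.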

Additional observations from a re-analysis of the deposited data

How the results depend on the processing

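No paired analysis was possible because the tables hold 1 mean per culture, and leaving out a replicate could not be run for the same reason. No median fold changed sign, but the standing of SINE regions in some comparisons depended on the setting. The count of 0 SINE regions between 32 kPa and plastic was the same at an FDR of 0.01 or 0.1, with a fold of at least 1 added and above the median level. It could not differ, because no region of that comparison had an FDR as low as any of these limits. In the authors' DiffBind comparison 11 SINE regions higher on plastic and 1 higher on 32 kPa had an unadjusted p under 0.05. Centred on the median of all regions, the median folds became 0.11 for SINE, 0.09 for Alu, 0.19 for B2, 0.08 for B4 and 0.03 for MIR. At or above the median level they were 0.12 for SINE, 0.10 for Alu, 0.17 for B2 and 0.085 for B4. In introns they were 0.155 for Alu, 0.21 for B2 and 0.02 for MIR, and between genes 0.18 for SINE, 0.255 for B2 and 0.12 for MIR. Per kilobase, median levels on 32 kPa and plastic became 6.55 and 6.723 for SINE, 6.571 and 6.716 for Alu, 6.491 and 6.743 for B2, 6.591 and 6.701 for B4, and 6.589 and 6.686 for MIR, since the regions are shorter than 1 kb. This turned the order on plastic, where B2 was lowest of the 4 main families without the correction (3.66) and MIR highest (4.06). At an FDR of 0.01 the lists held 2 SINE regions on 32 kPa (0.286% of the list so reduced) and 7 on plastic (1.01%). Counting only regions whose level reached the lowest one listed, the overlap with the lists of 32 kPa and plastic became 7.29% and 13.4% for SINE, 3.03% and 8.57% for Alu, 7.5% and 15.3% for B2, 5.26% and 16.3% for B4, and 8.2% and 8.96% for MIR. On plastic SINE, B2 and B4 then lay above all regions (11.7%), and without the level limit below (1.60%, 1.17% and 1.83% against 3.30%). Under the limit their shares rest on 31 of 231, 9 of 59 and 8 of 49 regions, and all intronic and intergenic regions had 12.7%. The limit used the level on plastic, where listed regions are high, so the change in place is not independent of the listing. Of the values under an alternative, 39 moved by more than the rounding of the deposited values (0.01), the binomial interval of a share or 1.5 times for a count, and 32 did not. Part of this tally was fixed in advance. Levels per kilobase change the unit, centring takes the same constant from every fold, and the counts of 0 could not change. The tally is therefore not a measure of how stable the results are. Precision is limited by having 2 libraries per culture and no value for either.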
